A study of Arabidopsis thaliana with 12 samples.

Results

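The 24 h comparison of the *35S:LFY-GR* root explant series sets 2 libraries of explants given dexamethasone against 2 libraries of mock treated explants. These 4 of the 12 libraries were chosen by their labels, with replicates A and B in each group. All 4 came from plants of the L.er cultivar with the transgene *35S:LFY-GR*, and their labels give the mutant field as WT. Roots of 3-week-old seedlings were kept on callus inducing medium (CIM) for 5 days, and the treatment covered the last 24 h. The 35S promoter drives the fusion of LEAFY (LFY) to the steroid binding part of a glucocorticoid receptor (GR) in most cell types. All 12 libraries of the series carry this transgene, so that responses to the steroid itself and to the nuclear entry of LFY-GR cannot be told apart here.

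LFY is a plant specific transcription factor that directs young meristems to become flowers, and the GR fusion is held in the cytoplasm until the steroid is applied. Explants on CIM receive auxin and cytokinin, and form callus by a route that resembles the start of a lateral root. The comparison thus asks which gene families and pathways rise and fall when LFY is activated in such root derived tissue.

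HTSeq assigned from 18511462 to 25879110 reads to genes in each of these libraries. Levels are given as CPM (counts per 1e+06 gene reads, with library totals corrected for composition), in the order replicate A and replicate B. Reads were not counted by strand and those placed at several positions were left out, so values of antisense or overlapping genes and of near-identical copies are uncertain. Reads with several positions made up 22.2% and 13.0% of the reads in mock and 11.7% and 6.90% with dexamethasone, and the part of this difference in the results was not tested. Among markers of tissues, the 22 callus and lateral root founder genes summed to 3085 and 3007 CPM in mock and 2536 and 2477 CPM with dexamethasone, so genes typical of the labelled callus were read in every library. The root regulators *SHR* (113 and 100.5 CPM in mock, 109.8 and 92.8 CPM with dexamethasone) and *SCR* (101 and 93.2 CPM in mock, 106 and 93.3 CPM with dexamethasone) were read in all 4 libraries. Nuclear photosynthesis genes, 63 in all, summed to 434 and 415 CPM in mock and 474 and 448 CPM with dexamethasone.

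Of 19288 genes tested, 1306 (6.77%) were higher and 1689 (8.76%) lower with dexamethasone at an adjusted *p* under 0.01 by edgeR's quasi-likelihood test, together 15.5%. Most of these changes were small. The log2 fold change reached at least 1 in 345 genes that rose and 459 that fell, and at least 2 in 115 and 129. The median log2 fold change was 0.55 among the genes that rose, -0.65 among those that fell and 0.005 over all genes tested. In bulk tissue, fewer cells of a type and less RNA per cell cannot be told apart. Fold changes are log2 values of dexamethasone over mock with their standard error, and *n* is 2 libraries per group throughout. These errors rest largely on a spread shared among genes, with 32.17 prior and 2 residual degrees of freedom. They are not a spread taken from the 2 libraries of each group alone. The shares over all genes tested, 6.77% higher and 8.76% lower, are the background for the counts of each gene group below.

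Beyond *AP1*, *RAX1*, *TFL1* and the genes matched to the flavonoid list, the largest rises were in genes of several kinds. Some entries of that list, *UGT91A1* and other glycosyltransferases among them, matched no locus. The leaders can thus still hold flavonoid genes, and AT2G22590 was not checked for this. *LMI1* (*HB51*, AT5G03790), a homeobox gene that acts beside LFY in the switch to floral fate, was at 0.0792 and 0.233 CPM in mock and 6.62 and 4.34 CPM with dexamethasone, a log2 fold change of 5.13 ± 0.48 (adjusted *p* = 9.2e-11). *TCP1* (AT1G67260), of the TCP family of growth regulators, was at 0.673 and 0.233 CPM in mock and 10.8 and 12.8 CPM with dexamethasone (4.64 ± 0.30, adjusted *p* = 9.3e-15). *ASN1* (AT3G47340), asparagine synthetase, was at 4.24 and 2.85 CPM in mock and 55.3 and 58.6 CPM with dexamethasone (3.99 ± 0.13, adjusted *p* = 5.1e-23). In each of the 3 genes both dexamethasone libraries lay above both mock libraries, which their choice as leading rises in these libraries made likely beforehand. The other leading rises were the glycosyltransferase gene AT2G22590, listed at 0 reads in both mock libraries, AT5G16030, *ARD3*, an acireductone dioxygenase gene of the methionine salvage cycle, the beta-glucosidase gene *BGLU24*, the receptor kinase gene AT5G49770, the cupin gene AT5G38930, the coumarate ligase gene *4CL3*, the glutathione transferase gene *ERD9* and *GA2OX4*, which inactivates gibberellin. Against the 3 reads per mock library that a count of 0 allows, AT2G22590 was at least 78.4-fold higher. The log2 fold changes of the others ran from 3.29 for *GA2OX4* to 5.33 for AT5G16030. The value of AT5G16030 rests on 1 and 11 reads in mock, and it was 4.35 without mock A and 7.87 without mock B.

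Among the 12 largest falls, several genes belong to wall synthesis or wall modification in the xylem or in pectin. *ESK1* (*TBL29*, AT3G55990), which acetylates xylan, was at 8.35 and 7.37 CPM in mock and 0.481 and 0.876 CPM with dexamethasone (-3.49 ± 0.31, adjusted *p* = 2.3e-11). *LAC4* (*IRX12*, AT2G38080), a lignin laccase, was at 10.7 and 9.43 CPM in mock and 1.76 and 1.14 CPM with dexamethasone (-2.81 ± 0.25, adjusted *p* = 2.8e-11). Both genes were several times lower in each dexamethasone library than in either mock library, which their choice as leading falls made likely beforehand. The polygalacturonase or pectin lyase genes AT2G43860 (-3.21 ± 0.27) and AT1G65570 (-3.07 ± 0.20) and the pectinesterase gene *PE11* (-2.92 ± 0.24) fell as well. With them fell the NADPH oxidase gene *RBOHB* (-2.77 ± 0.33), the xylem regulator *NAC007* (-2.89 ± 0.34), AT3G57620, annotated as related to glyoxal oxidase (-3.09 ± 0.16), and the cupredoxin gene AT5G26330 (-2.80 ± 0.26). The remaining leaders AT5G22430, AT5G52390 and AT1G13635 fell by 4.63, 4.08 and 3.49 on the log2 scale. All 24 calls were kept with DESeq2, with all 12 libraries in the fit and without each of the 4 libraries.

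**Figure D1:**
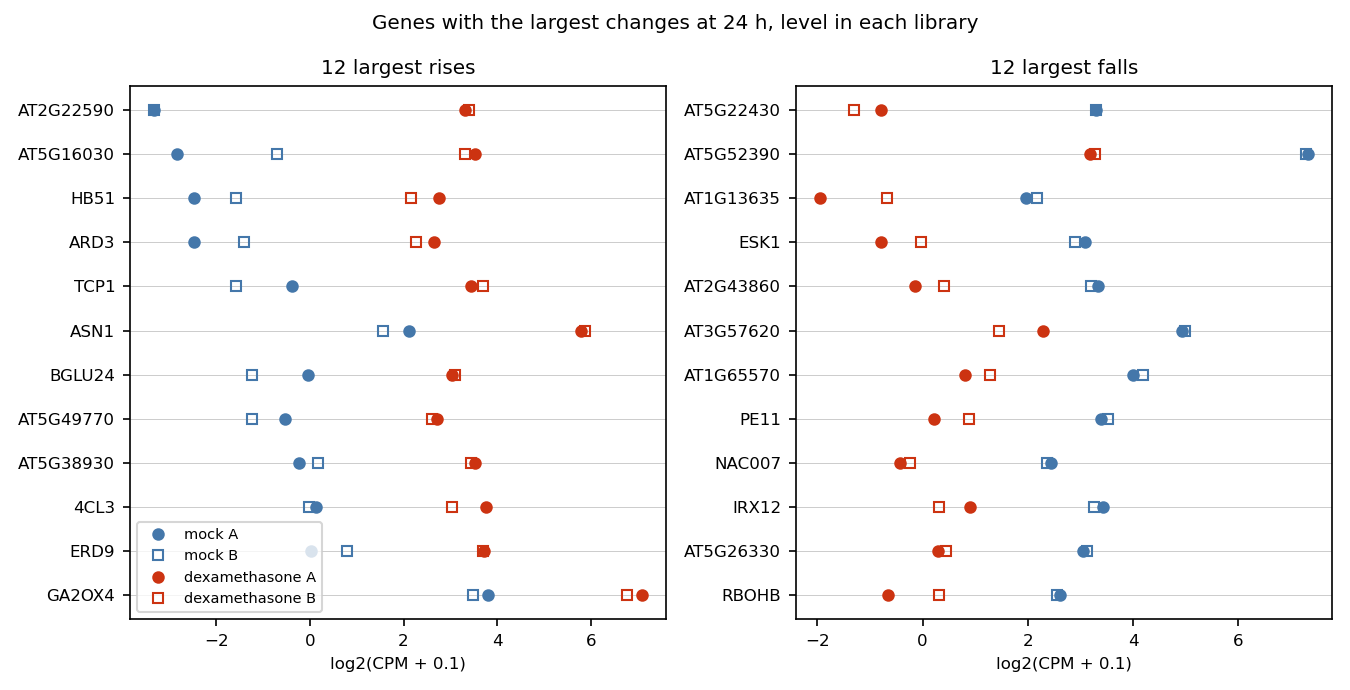
Level of the 12 genes with the largest rises (left) and the 12 with the largest falls (right) in each of the 4 libraries, as log2(CPM + 0.1) on the x axis; circles are replicate A and squares replicate B. For each gene the 2 mock libraries (blue) and the 2 dexamethasone libraries (red) lie apart. The genes were picked for their change in these same 4 libraries, so this gap follows from the choice.

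**Figure D2:**
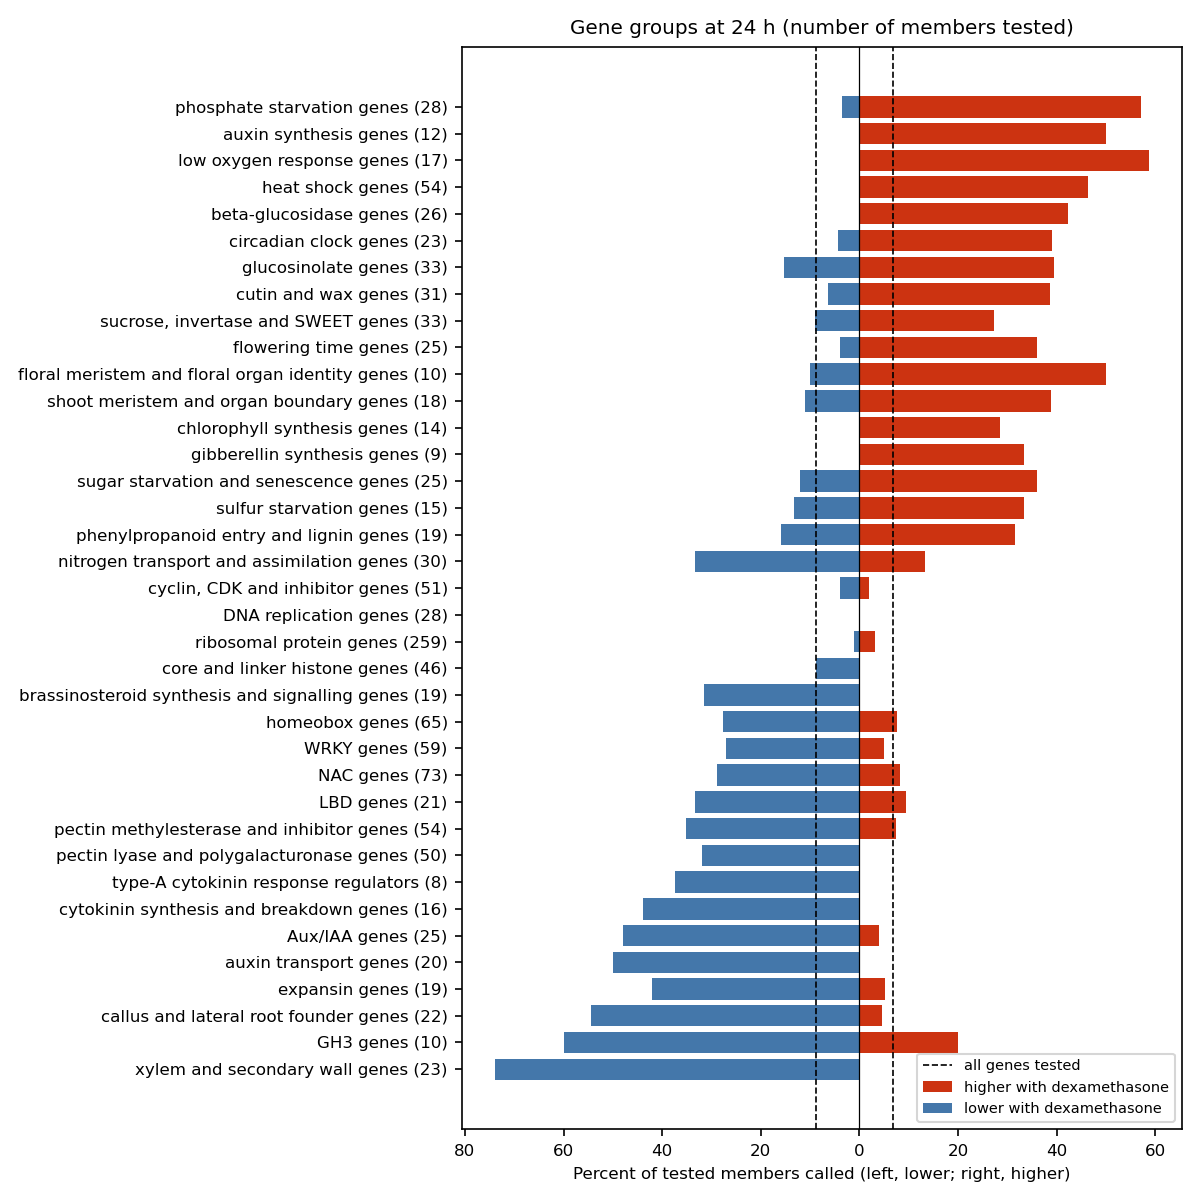
Percent of the tested members of 37 gene groups (y axis, number tested in brackets) that were lower (blue, left) or higher (red, right) with dexamethasone at an adjusted p under 0.01; dashed lines give the same percent over all genes tested, 8.76 lower and 6.77 higher. Phosphate starvation, low oxygen and auxin synthesis genes stand at the top and xylem genes at the bottom. The 37 groups are a selection from the 106 gene lists, so the place of a group is no rank among all lists.

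Several genes of floral and shoot meristem identity rose. Of 29 floral meristem and floral organ identity genes, 10 had enough reads for the test, of which 5 rose and 1 fell. *AP1*, *LMI1* and *SEP2*, among the 5, had 5 or fewer reads in each mock library. They passed the read filter through their dexamethasone reads, so they could be called only as rises. *SEP2*, a partner of the floral organ identity factors, was at 0.158 and 0.233 CPM in mock and 2.14 and 1.01 CPM with dexamethasone (2.97 ± 0.65, adjusted *p* = 7.0e-04). *PI*, needed for petals and stamens, was at 13.9 and 13.5 CPM in mock and 21.6 and 20.7 CPM with dexamethasone (0.62 ± 0.12, adjusted *p* = 1.5e-04). *PUCHI*, an ERF gene of floral meristem identity and of lateral root initiation, fell from 299 and 300.2 CPM to 152 and 156 CPM (-0.96 ± 0.05, adjusted *p* = 2.5e-16). Reads of *LFY*, in which those of the transgene and the endogenous gene are counted together, were at 604 and 550.5 CPM in mock and 933 and 816 CPM with dexamethasone (0.60 ± 0.06). *SEP3*, *AP3* and *AG* had too few reads to be tested. With all 12 libraries in the fit 3 of the identity genes rose, with the calls of *LFY* and *PI* lost, and 2 did among genes with at least 10 reads in each library. The call of *SEP2*, with 4 and 5 reads in mock, was lost without mock A or dexamethasone A.

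Of 18 tested shoot meristem and organ boundary genes, 7 rose and 2 fell. Among those with at least 10 reads in each library 5 rose and 1 fell. *CUC2* (AT5G53950), a NAC gene that marks organ boundaries and precedes the shoot meristem, was at 2.69 and 2.05 CPM in mock and 20.5 and 15 CPM with dexamethasone (2.88 ± 0.20, adjusted *p* = 3.4e-14). *LSH1* was at 23.7 and 26.4 CPM in mock and 99.6 and 80.6 CPM with dexamethasone (1.85 ± 0.09, adjusted *p* = 3.6e-18). *LSH3*, whose product accumulates at boundaries of shoot organs, was at 28.3 and 23 CPM in mock and 52.6 and 45.5 CPM with dexamethasone (0.93 ± 0.10). Both boundary genes and *LSH1* were thus higher in each dexamethasone library, though all were picked as leading rises of their lists. *STM*, the KNOX gene that maintains the shoot meristem, was chosen after its values were seen. Its read counts were 0 in each mock library, 32 in dexamethasone A and 11 in dexamethasone B. Its relative *KNAT1* was at 43.4 and 41.8 CPM in mock and 50.2 and 44.2 CPM with dexamethasone and was not called. *LSH2*, also chosen after its values were seen, had 0 and 1 reads in mock and 28 and 50 with dexamethasone. Of 9 tested genes of the *LSH* family, 3 rose and 0 fell, and 2 rose among those with at least 10 reads in each library. The boundary gene *LAS* fell from 32.9 and 35.3 CPM to 23.9 and 25.9 CPM (-0.45 ± 0.10). Of the 2 falls, *LAS* and *BLH8*, 0 were kept without mock B or with all 12 libraries in the fit, and 1 without mock A or dexamethasone B. Of 13 tested organ polarity genes 0 rose and 4 fell, and 0 did with all 12 libraries in the fit and 2 without mock A.

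The LFY core site, CCANTGG, reads the same on both strands and was looked for in 300 bases of each tested gene, from 250 before to 50 after the start that RefSeq annotates. It was present in 4.07% of 19178 genes, in 3.75% of the 1306 that rose and in 2.69% of the 1673 that fell and have such a window. None of the 12 windows of the leading rises held it. Of 197 named genes that rose, 9 did. The 4 with the largest rise are printed because they show where the letters stand in genes of the groups described here, 5′ to 3′ on the strand of the gene, with the match in capitals. They are from the RefSeq reference genome (TAIR10.1), which is not the L.er cultivar of the plants. The windows are chr5:10455632-10455931 on the minus strand for *LSH1*, chr5:3839066-3839365 on the plus strand for *cwINV6*, chr5:3613591-3613890 on the minus strand for *YUC4* and chr4:17316392-17316691 on the minus strand for *HB40*. The match starts 41, 124 and 64 bases before the start of *LSH1*, *YUC4* and *HB40*, and at base 29 of the transcribed part of *cwINV6*.
LSH1: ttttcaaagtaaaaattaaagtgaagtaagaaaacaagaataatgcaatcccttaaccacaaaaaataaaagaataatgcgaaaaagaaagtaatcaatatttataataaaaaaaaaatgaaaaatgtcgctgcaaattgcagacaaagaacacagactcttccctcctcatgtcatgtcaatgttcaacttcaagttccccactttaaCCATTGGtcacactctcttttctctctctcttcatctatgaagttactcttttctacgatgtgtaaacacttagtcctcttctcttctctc
cwINV6: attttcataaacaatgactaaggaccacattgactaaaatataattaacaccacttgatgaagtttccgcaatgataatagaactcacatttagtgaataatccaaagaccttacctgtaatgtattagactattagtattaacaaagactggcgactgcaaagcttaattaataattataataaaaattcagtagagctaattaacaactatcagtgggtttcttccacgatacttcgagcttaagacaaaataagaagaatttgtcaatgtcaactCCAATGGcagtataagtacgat
YUC4: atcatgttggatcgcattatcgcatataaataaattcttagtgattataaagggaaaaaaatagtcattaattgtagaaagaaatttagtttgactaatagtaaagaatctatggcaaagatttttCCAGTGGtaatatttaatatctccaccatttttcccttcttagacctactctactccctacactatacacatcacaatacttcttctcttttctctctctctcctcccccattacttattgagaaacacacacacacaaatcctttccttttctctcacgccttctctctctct
HB40: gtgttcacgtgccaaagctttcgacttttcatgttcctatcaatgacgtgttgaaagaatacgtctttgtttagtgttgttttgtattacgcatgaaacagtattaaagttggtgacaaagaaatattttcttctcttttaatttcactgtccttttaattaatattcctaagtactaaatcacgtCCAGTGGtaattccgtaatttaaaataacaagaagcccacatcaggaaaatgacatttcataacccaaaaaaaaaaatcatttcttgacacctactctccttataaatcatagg
A match is a sequence and not a bound site, and sites further from the start were not searched.

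Most flowering time genes that passed the test rose. Of 25 tested members 9 rose and 1 fell, although the median log2 fold change was -0.10. *TFL1*, with 0 reads in both mock libraries, is among the 9 and could be called only as a rise. Among genes with at least 10 reads in each library 7 rose. *BZIP27* (*FDP*), a paralog of the florigen partner *FD*, was at 2.65 and 2.89 CPM in mock and 8.98 and 8.63 CPM with dexamethasone (1.67 ± 0.22, adjusted *p* = 2.2e-07). *FD* itself was at 12.9 and 12.3 CPM in mock and 19.6 and 17.2 CPM with dexamethasone (0.54 ± 0.13). Its call was lost with DESeq2, with all 12 libraries in the fit, without mock B (0.49) and without dexamethasone A (0.44). *TEM1*, a repressor of flowering, was at 11 and 12.4 CPM in mock and 29.1 and 24.8 CPM with dexamethasone (1.20 ± 0.12). The riser *FKF1*, a blue light receptor of the photoperiod pathway, was at 7.2 and 10.2 CPM in mock and 16.7 and 19.4 CPM with dexamethasone (1.07 ± 0.15). Promoters and repressors of flowering were thus both among the genes that rose. *MFT* (*E12A11*), of the same family as *TFL1*, fell from 102 and 93.8 CPM to 45.8 and 41.5 CPM (-1.16 ± 0.07). With all 12 libraries in the fit 5 rose. The 9 tested *SPL* genes, age dependent activators of flowering, had no member called, with DESeq2 as well, and 2 had an unadjusted *p* under 0.05 in edgeR.

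Of 23 circadian clock genes 9 rose and 1 fell. The riser with the largest change was *ELF4*, part of the evening complex, at 8.67 and 7.33 CPM in mock and 34.6 and 32.3 CPM with dexamethasone (2.06 ± 0.12, adjusted *p* = 1.0e-15). *LUX* (*PCL1*), of the same complex, rose from 36.6 and 32.2 CPM to 55 and 53.3 CPM (0.65 ± 0.09), and *ELF3* from 109.9 and 101 CPM to 134 and 139 CPM (0.37 ± 0.06). All 3 subunits of the evening complex were therefore higher with dexamethasone. *PRR5* and *TOC1*, of the pseudo-response regulators that repress *CCA1*, rose by 0.51 ± 0.09 and 0.55 ± 0.06. *CCA1*, a morning gene, fell from 9.58 and 13.9 CPM to 6.46 and 7.01 CPM (-0.79 ± 0.18), while its partner *LHY* was at 8.91 and 9.71 CPM in mock and 7.69 and 8.85 CPM with dexamethasone and was not called. The call of *CCA1* was lost with DESeq2 and without mock B (-0.51).

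Genes for both ends of the gibberellin pathway rose. Gibberellins are growth hormones whose level is set by GA20 and GA3 oxidases, which make the active forms, and by GA2 oxidases, which inactivate them. Of 9 tested synthesis genes 3 rose and 0 fell. *GA20OX1* was at 4.51 and 3.59 CPM in mock and 25.7 and 20.9 CPM with dexamethasone (2.51 ± 0.16, adjusted *p* = 4.7e-15). *GA3OX2* was at 11.5 and 9.71 CPM in mock and 26 and 20.2 CPM with dexamethasone (1.11 ± 0.14), and *GA3OX1* at 12.6 and 13.6 CPM in mock and 24.1 and 18.8 CPM with dexamethasone (0.71 ± 0.13). Of the 6 tested inactivating enzymes 3 rose and 1 fell. Next to *GA2OX4*, *GA2OX2* was at 56.1 and 54.8 CPM in mock and 139 and 126 CPM with dexamethasone (1.26 ± 0.07, adjusted *p* = 4.0e-17). *GA2OX6* moved the other way, from 27.4 and 23.1 CPM to 10.2 and 10.1 CPM (-1.32 ± 0.13). Among receptors and repressors, *GID1A* (0.42 ± 0.09) and the DELLA gene *GAI* (0.46 ± 0.12) rose and the receptor gene *GID1B* (-0.22 ± 0.06) fell. Without dexamethasone B these 3 calls were lost, at 0.36, 0.38 and -0.17. The gibberellin regulated peptide gene *GASA5* fell from 65.5 and 72.6 CPM to 27.9 and 28.4 CPM (-1.29 ± 0.09). Of the receptor, DELLA and GASA genes 4 rose and 2 fell, and 0 rose with all 12 libraries in the fit, 2 with DESeq2, 2 without mock B and 1 without dexamethasone B.

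Auxin genes split by their role. Auxin is made in part through the YUCCA monooxygenases, moved between cells by PIN and AUX/LAX proteins, and read out by Aux/IAA and *GH3* genes that it induces. Of the synthesis genes, 6 of 12 tested members rose and 0 fell (1 without dexamethasone A), with a median log2 fold change of 0.78. *YUC4* was at 2.73 and 3.45 CPM in mock and 11.5 and 6.18 CPM with dexamethasone (1.51 ± 0.25, adjusted *p* = 1.2e-05). The nitrilase gene *NIT1* was at 56.6 and 54.1 CPM in mock and 117 and 122 CPM with dexamethasone (1.11 ± 0.07), and *CYP79B3*, which leads to auxin and to indole glucosinolates, at 7.52 and 8.87 CPM in mock and 15.6 and 17.4 CPM with dexamethasone (1.02 ± 0.15). *TAA1*, the aminotransferase that feeds the YUCCA enzymes, was at 8.11 and 6.25 CPM in mock and 8.49 and 8.94 CPM with dexamethasone and was not called. The nitrilase genes *NIT1*, *NIT2* and *NIT3* lie side by side and are similar, so that reads may be shared among them.

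Of 20 tested auxin transport genes 0 rose and 10 fell. The influx carrier gene *LAX3* fell from 191 and 189.6 CPM to 83.6 and 97.2 CPM (-1.07 ± 0.06, adjusted *p* = 9.7e-16), and *PIN6* from 13.5 and 12.9 CPM to 7.21 and 5.39 CPM (-1.08 ± 0.17). *PIN7* was at 895 and 888 CPM in mock and 868 and 852 CPM with dexamethasone and was not called. Of 25 tested Aux/IAA genes 12 fell and 1 rose, the riser being *IAA28* (0.53 ± 0.12). Its call was lost with DESeq2, with all 12 libraries in the fit and without mock A (0.43). *IAA19* was at 245 and 252 CPM in mock and 145 and 135 CPM with dexamethasone (-0.83 ± 0.06, adjusted *p* = 4.0e-14), and *IAA20* and *IAA29* fell by 1.04 and 0.89 on the log2 scale. Of 10 tested *GH3* genes 6 fell and 2 rose. *GH3.1* fell from 424 and 387 CPM to 186 and 166 CPM (-1.21 ± 0.06), while *GH3.3* rose from 941 and 913 CPM to 1424 and 1331 CPM (0.57 ± 0.05). *JAR1*, which conjugates jasmonate and not auxin, fell from 301 and 300.1 CPM to 123 and 129 CPM (-1.25 ± 0.06). With all 12 libraries in the fit 7 Aux/IAA genes and 6 transport genes fell.

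Cytokinin genes fell or did not pass the test. Cytokinin is made by IPT and LOG enzymes and broken down by CKX oxidases, and it induces type-A response regulators that damp its own signal. Of 16 tested synthesis and breakdown genes 0 rose and 7 fell. *CKX1* was at 15.6 and 15.8 CPM in mock and 4.65 and 5.47 CPM with dexamethasone (-1.63 ± 0.16, adjusted *p* = 6.0e-10), *CKX5* at 160.3 and 170.0 CPM in mock and 87.8 and 87.2 CPM with dexamethasone (-0.92 ± 0.06). *LOG5* fell from 21.2 and 19.3 CPM to 8.98 and 6.75 CPM (-1.38 ± 0.15) and *IPT5* from 5.9 and 4.57 CPM to 2.78 and 2.23 CPM (-1.07 ± 0.27), so enzymes of both directions were lower. The call of *IPT5* was lost with DESeq2, with all 12 libraries in the fit, without mock A (-0.87) and without dexamethasone B (-0.92). Of 8 tested type-A regulators 3 fell, with *ARR5* (*RR5*) at 28.1 and 33.5 CPM in mock and 17.6 and 20.2 CPM with dexamethasone (-0.70 ± 0.11), and 1 fell with all 12 libraries in the fit. Of 19 tested brassinosteroid genes 0 rose and 6 fell, among them the synthesis genes *DWF4* (-0.58 ± 0.08) and *ROT3* (-0.62 ± 0.08), and 1 rose without mock A or dexamethasone B. The inactivating gene *CYP72C1* fell from 122 and 139 CPM to 63.6 and 68.1 CPM (-0.98 ± 0.07). *BRI1*, the receptor, was at 407 and 392 CPM in mock and 394 and 372 CPM with dexamethasone and was not called.

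Abscisic acid and ethylene genes moved both ways. *NCED3*, the rate-limiting enzyme of abscisic acid synthesis, fell from 5.38 and 5.79 CPM to 1.01 and 0.964 CPM (-2.49 ± 0.31, adjusted *p* = 6.2e-08). The phosphatase genes *HAI1* (-1.40 ± 0.15) and *HAI2* (-1.30 ± 0.20), induced by this hormone, fell as well, whereas the receptor gene *PYL6* rose from 31 and 27.8 CPM to 68.6 and 64.2 CPM (1.17 ± 0.09). In all 6 of 29 tested genes rose and 6 fell, and 2 rose with all 12 libraries in the fit. In ethylene synthesis, the last enzyme's genes *ACO4* (*EFE*), at 23.3 and 22.4 CPM in mock and 76.9 and 67.3 CPM with dexamethasone (1.66 ± 0.09), and *ACO1* (1.31 ± 0.08) rose. The genes of the step before, *ACS6* (-0.88 ± 0.12) and *ACS2* (-0.78 ± 0.13), fell. The ethylene receptor gene *ETR1* was at 52.3 and 53.2 CPM in mock and 52 and 57.4 CPM with dexamethasone and was not called. In total 3 of 20 ethylene genes rose and 3 fell, with 6 rises when libraries were scaled by their totals alone. Of 24 tested jasmonate genes 5 rose and 1 fell, *LOX6* by 0.69 ± 0.08 and *CYP94B1* by 0.75 ± 0.14. Of these, 3 rose with DESeq2 and 3 without mock A or dexamethasone B.

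**Figure D3:**
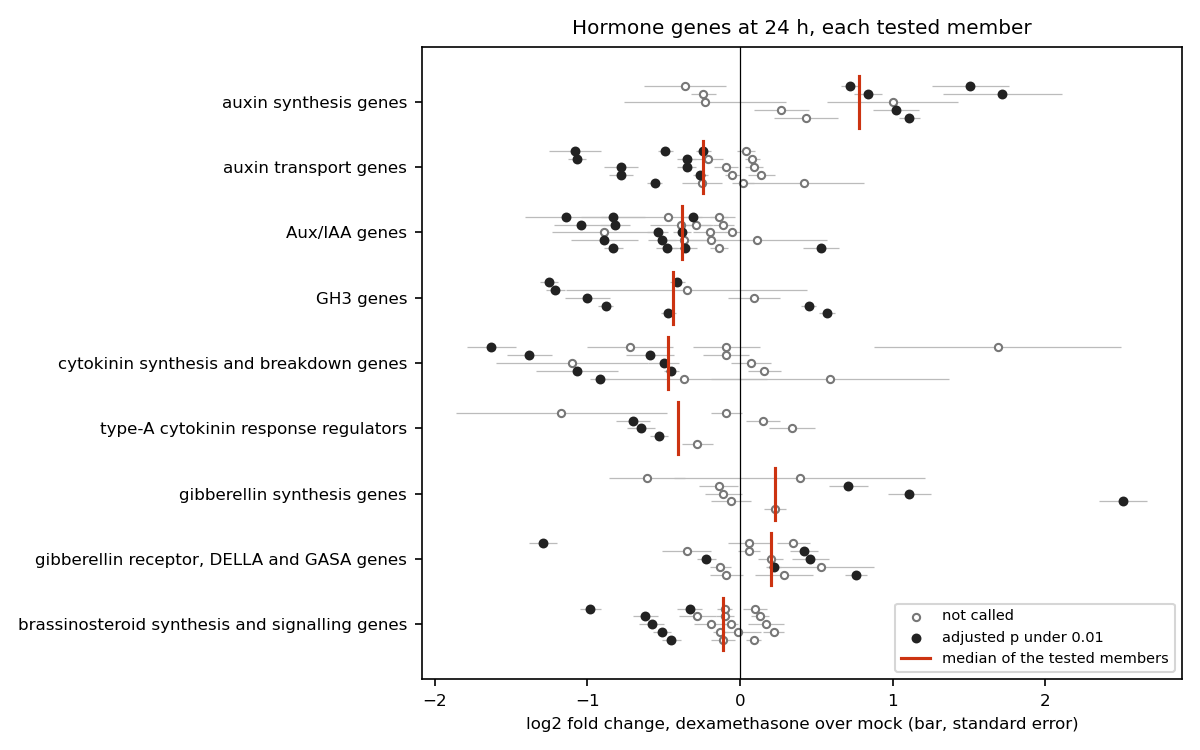
Log2 fold change of dexamethasone over mock (x axis) for each tested member of 9 hormone groups (y axis), with its standard error as a grey bar; filled points passed an adjusted p under 0.01 and red lines are medians. Auxin synthesis genes lie mostly to the right (median 0.78) and auxin transport, Aux/IAA, GH3 and cytokinin genes mostly to the left.

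Many genes of callus and lateral root founder cells fell. Of 22 members, all tested, 12 fell and 1 rose, with a median log2 fold change of -0.34. *LBD29* (AT3G58190), an LBD factor that starts lateral roots and callus, was at 51.5 and 59.3 CPM in mock and 14.5 and 16.1 CPM with dexamethasone (-1.85 ± 0.10, adjusted *p* = 8.0e-17). *LBD16* was at 230.2 and 216 CPM in mock and 145 and 155 CPM with dexamethasone (-0.57 ± 0.06), and *LBD17* (*ASL15*) at 23.1 and 22.6 CPM in mock and 12 and 11.1 CPM with dexamethasone (-0.99 ± 0.12). *GATA23*, which specifies founder cells, fell from 5.98 and 6.02 CPM to 2.51 and 2.85 CPM (-1.16 ± 0.25). *WOX5*, active in the quiescent center of the root, fell from 92.7 and 99.2 CPM to 65.8 and 66.8 CPM (-0.53 ± 0.07). The root stem cell regulators *PLT1* and *PLT2* were not among the genes that fell. *PLT1* rose from 108 and 101 CPM to 131 and 125 CPM (0.29 ± 0.06), a call lost with all 12 libraries in the fit and without mock B (0.23). *PLT2* was at 37.5 and 37.7 CPM in mock and 43 and 37.2 CPM with dexamethasone. Of 15 tested root patterning genes 2 rose and 3 fell, and 1 rose without mock A or dexamethasone A. The 3 that fell are NAC regulators of the root cap, *BRN1* (*NAC015*) at 60.8 and 59.9 CPM in mock and 22.6 and 21.9 CPM with dexamethasone (-1.44 ± 0.09), *BRN2* (*NAC070*, -1.97 ± 0.32) and *SMB* (-0.46 ± 0.10). The call of *SMB* was lost with DESeq2, with all 12 libraries in the fit and without dexamethasone B (-0.29). *FEZ*, also a NAC gene of the root cap, rose by 1.03 on the log2 scale. In the whole *LBD* family 7 of 21 tested genes fell and 2 rose, the risers *LBD38* (0.96 ± 0.14) and *LBD39* (0.45 ± 0.09) being regulators of nitrogen metabolism. The call of *LBD39* was lost with all 12 libraries in the fit and without dexamethasone A (0.29).

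Of the gene groups with at least 5 tested members, xylem and secondary wall formation had the lowest median and the largest share of members that fell. Water conducting xylem cells are specified by VND transcription factors, lay down cellulose, xylan and lignin, and then die by their own proteases. Of 23 tested members 17 fell and 0 rose, with a median log2 fold change of -2.14, against 0.005 over all genes. With DESeq2 13 fell, with at least 10 reads in each library 15, and with all 12 libraries in the fit 16. In each of these settings 0 rose. The summed level of the 28 listed genes, of which 3 had no reads, was 390.2 and 385 CPM in mock and 163 and 175 CPM with dexamethasone. Of the 17, 16 fell by at least 1 on the log2 scale. The regulator *VND4* (*NAC007*) was at 5.34 and 5.04 CPM in mock and 0.641 and 0.745 CPM with dexamethasone. *VND7*, the master regulator of protoxylem, was chosen after its values were seen and had 23 and 21 reads in mock and 0 and 1 with dexamethasone. This gene passed the read filter through its mock reads, so it could be called only as a fall. Its log2 fold change of -5.00 was no longer called with DESeq2 (-5.30) or without dexamethasone A (-4.27). *MYB46*, named in the same way and next in the hierarchy, fell from 2.61 and 3.73 CPM to 0.908 and 0.526 CPM (-2.16 ± 0.42, adjusted *p* = 1.2e-04).

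Genes for the secondary wall itself also fell. Its 3 cellulose synthase genes all fell, *CESA8* (*IRX1*) from 16 and 16.1 CPM to 3.37 and 3.37 CPM (-2.25 ± 0.17), *CESA4* from 23 and 24 CPM to 6.89 and 7.53 CPM (-1.70 ± 0.14) and *CESA7* (*IRX3*) from 16.2 and 14.7 CPM to 5.18 and 6.18 CPM (-1.44 ± 0.16). The xylan gene *IRX9* (-2.55 ± 0.35) and the lignin laccase genes *LAC11* (-2.59 ± 0.13) and *LAC17* (-2.24 ± 0.23) were lower as well. The cysteine proteases of dying xylem, *XCP1* at 29.2 and 27.9 CPM in mock and 3.58 and 4.91 CPM with dexamethasone (-2.73 ± 0.15, adjusted *p* = 5.6e-17) and *XCP2* at 31.2 and 32.1 CPM in mock and 6.52 and 5.34 CPM with dexamethasone (-2.42 ± 0.13), fell too. *IRX14* and *KNAT7* did not pass the test, at log2 fold changes of -0.16 ± 0.09 and -0.23 ± 0.15. Of 19 tested phenylpropanoid and lignin genes 6 rose and 3 fell. *FAH1* (AT4G36220), the ferulate 5-hydroxylase that leads to syringyl lignin, fell from 256 and 224 CPM to 57.6 and 55.8 CPM (-2.08 ± 0.07, adjusted *p* = 1.8e-23). *PAL1*, the entry enzyme, rose from 189.8 and 184 CPM to 257 and 266 CPM (0.48 ± 0.05), *C4H* by 0.31 ± 0.05 and *4CL3* from 0.99 and 0.887 CPM to 13.5 and 8.1 CPM (3.50 ± 0.28, adjusted *p* = 2.5e-12). *PAL4* fell from 54.1 and 50.2 CPM to 29.9 and 32.5 CPM (-0.74 ± 0.09). Of this group 1 rose and 1 fell with all 12 libraries in the fit, and 3 rose without mock A. Summed phloem markers were at 1127 and 1098 CPM in mock and 939 and 912 CPM with dexamethasone, with 3 of 13 higher, 1 with all 12 libraries in the fit, and 3 lower. *SEOR1*, which forms sieve element filaments, rose by 1.17 ± 0.19 and the lectin gene *PP2-A1* fell by 0.91 on the log2 scale. *SUC2*, the loading transporter, was at 138 and 132 CPM in mock and 125 and 119.8 CPM with dexamethasone and *APL*, the phloem regulator, at 18.7 and 18.5 CPM in mock and 18.3 and 17.6 CPM with dexamethasone, neither called.

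**Figure D4:**
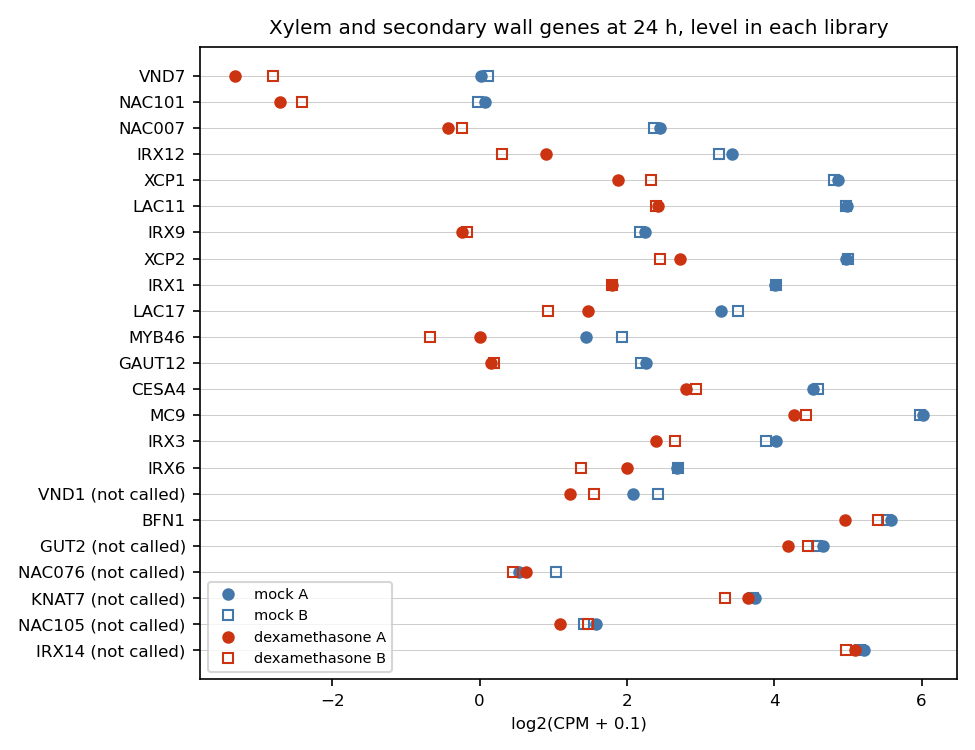
Level of the 23 tested xylem and secondary wall genes in each of the 4 libraries, as log2(CPM + 0.1) on the x axis, ordered by fold change; circles are replicate A, squares replicate B, blue mock and red dexamethasone. From VND7 at the top to IRX6 the log2 fold change is -1 or lower, and at the bottom the 2 groups lie close together.

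Genes for enzymes that loosen or remodel the primary wall fell more often than they rose, except among the *XTH* genes. Of 19 tested expansin genes 8 fell and 1 rose. The riser, *EXLA1*, was at 10.9 and 10.6 CPM in mock and 14.2 and 16 CPM with dexamethasone (0.49 ± 0.14), a call lost with DESeq2, with at least 10 reads in each library, with all 12 libraries in the fit and without mock A, mock B or dexamethasone B. *EXPA1* was at 780.4 and 726 CPM in mock and 319.8 and 326 CPM with dexamethasone (-1.22 ± 0.05, adjusted *p* = 1.4e-19). *EXPB2* (-2.17 ± 0.10) and *EXPA14* (-1.88 ± 0.11) fell further from lower levels. Of 50 tested pectin lyase and polygalacturonase genes 16 fell and 0 rose, and 16 fell with all 12 libraries in the fit. Of 54 tested pectin methylesterase and inhibitor genes 19 fell and 4 rose (2 with all 12 libraries), the largest rise being AT3G10720 at 59 and 55.1 CPM in mock and 125 and 113 CPM with dexamethasone (1.06 ± 0.07). Of 21 tested *XTH* genes, which cut and rejoin xyloglucan, 5 rose (23.8%) and 2 fell (9.52%), against 6.77% and 8.76% of all genes tested. *XTH9* rose by 1.76 ± 0.11 and *XTH15* by 1.51 ± 0.18, while *XTH19* fell by 0.85 on the log2 scale. With DESeq2 or all 12 libraries 3 of them rose, as without dexamethasone B, and 2 without mock A. Among 7 tested germin-like protein genes 4 fell and 1 rose, *GLP10* from 11.6 and 11.1 CPM to 2.4 and 3.15 CPM (-2.01 ± 0.21). Of these genes 2 rose without mock B or dexamethasone A and 0 with all 12 libraries. Of 48 tested class III peroxidase genes 6 rose and 12 fell, and 7 fell with all 12 libraries in the fit.

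Most genes of the phosphate starvation response rose. Plants short of phosphate make SPX proteins, non-coding *IPS1* and *AT4* RNAs, acid phosphatases, and enzymes that swap phospholipids for sulfo- and galactolipids. Of 28 tested members 16 rose and 1 fell, with a median log2 fold change of 0.60. *IPS1* (AT3G09922) was at 0.633 and 0.513 CPM in mock and 3.69 and 7.53 CPM with dexamethasone (3.28 ± 0.38, adjusted *p* = 1.2e-08). *SPX1* was at 16.9 and 19.5 CPM in mock and 52.5 and 73 CPM with dexamethasone (1.79 ± 0.11, adjusted *p* = 3.4e-15), and *SPX3* at 0.871 and 1.17 CPM in mock and 4.01 and 5.26 CPM with dexamethasone (2.19 ± 0.33). *SPX1* was highest in dexamethasone B, as was *IPS1*. The groups did not overlap for either gene, but both were picked as leading rises of the list. *AT4* (AT5G03545) rose by 1.37 ± 0.08, the phosphatase gene *PAP17* by 1.14 ± 0.12 and the sulfolipid gene *SQD1* from 37.8 and 38.1 CPM to 70.6 and 88.2 CPM (1.07 ± 0.09). The main root transporter genes *PHT1;1* (12 and 10.8 CPM in mock, 11.7 and 14.3 CPM with dexamethasone) and *PHT1;2* were not called, while *PHT1;4* rose by 0.58 ± 0.09. *LPR2* fell by 0.32 on the log2 scale, a call lost without mock B (-0.28). The rise was kept in 13 genes with all 12 libraries in the fit, 14 with DESeq2 and 15 to 17 without 1 library.

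Sulfur and nitrogen genes followed different courses. All 3 genes of APS reductase, the enzyme that controls sulfate reduction, rose, *APR3* from 54.7 and 55.7 CPM to 110.5 and 112 CPM (1.01 ± 0.07, adjusted *p* = 1.2e-14), *APR2* by 0.91 ± 0.18 and *APR1* by 0.61 ± 0.10. *SULTR1;2*, the main root sulfate uptake gene, was at 75 and 77.1 CPM in mock and 72.7 and 74.1 CPM with dexamethasone and was not called. In total 5 of 15 sulfur starvation genes rose and 2 fell. Nitrate assimilation fell instead. *NIA1* and *NIA2*, the nitrate reductase genes, both fell. *NIA1* went from 1844 and 1784 CPM to 718 and 671 CPM (-1.39 ± 0.05), and *NIA2* from 1887 and 1744 CPM to 1038 and 1015 CPM (-0.82 ± 0.05). *NIR1* fell from 254 and 256 CPM to 169 and 195 CPM (-0.48 ± 0.06), the nitrate transporter and sensor gene *NRT1.1* from 196 and 183 CPM to 145 and 129 CPM (-0.47 ± 0.06), and the glutamine synthetase gene *GLN1;4* from 272 and 249.5 CPM to 121 and 113 CPM (-1.15 ± 0.06). Together 10 of 30 nitrogen genes fell and 4 rose, *ASN1* among the latter.

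Of 17 tested low oxygen response genes 10 rose and 0 fell. *HRE1* (*ERF73*), an ERF factor of this response, was at 4.08 and 3.83 CPM in mock and 11.4 and 12.3 CPM with dexamethasone (1.58 ± 0.19, adjusted *p* = 2.5e-08). *SUS4*, a sucrose synthase gene, was at 160.3 and 160.0 CPM in mock and 308 and 352 CPM with dexamethasone (1.04 ± 0.06), and the ethylene synthesis gene *ACO1* rose by 1.31 ± 0.08. *ADH1*, the fermentation enzyme, was at 499 and 484 CPM in mock and 559 and 690.2 CPM with dexamethasone (0.35 ± 0.06), a smaller rise whose call was lost with DESeq2 and without dexamethasone B (0.19). *HB1*, the haemoglobin gene, was at 139 and 137 CPM in mock and 121 and 159 CPM with dexamethasone and was not called. Of 25 sugar starvation and senescence genes 9 rose and 3 fell. Beside *ASN1*, *DIN2* was at 32.3 and 31.7 CPM in mock and 107 and 131 CPM with dexamethasone (1.90 ± 0.08, adjusted *p* = 9.3e-20) and *SEN1* (AT4G35770) at 4.63 and 4.01 CPM in mock and 7.96 and 10.9 CPM with dexamethasone (1.13 ± 0.20). *HAI1*, *WRKY53* (-1.05 ± 0.20) and *EXL2* (-0.32 ± 0.05) fell. Sugar transport and cleavage genes rose in 9 of 33 cases and fell in 3, with 5 rises by DESeq2. *SUC1*, a sucrose importer, was at 18.4 and 18.6 CPM in mock and 128 and 118 CPM with dexamethasone (2.74 ± 0.08, adjusted *p* = 9.7e-25). The invertase gene *cwINV6* rose from 2.61 and 3.41 CPM to 8.6 and 9.24 CPM (1.58 ± 0.22), and *SWEET15* (*SAG29*) fell from 65.6 and 57.5 CPM to 24.3 and 19.1 CPM (-1.51 ± 0.10). Of the 3 falls 1 was kept with all 12 libraries in the fit or without dexamethasone A.

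Heat shock genes rose in 25 of 54 tested members and fell in 0, with a median of 0.20. *HSP17.6II* was at 5.78 and 7 CPM in mock and 15.7 and 19.3 CPM with dexamethasone (1.46 ± 0.16, adjusted *p* = 2.7e-09), *HSP21* at 3.29 and 2.8 CPM in mock and 5.18 and 9.72 CPM with dexamethasone (1.30 ± 0.25), and *HSP23.6-MITO* at 3.33 and 5.41 CPM in mock and 6.04 and 12.7 CPM with dexamethasone (1.13 ± 0.25). In these 3 genes dexamethasone B, which also had the lowest share of reads with several positions, was the highest library, and the part of this share was not tested. Without it 11 members rose and 1 fell, and the calls of *HSP21* (0.76) and *HSP23.6-MITO* (0.48) were lost. The risers numbered 14 with DESeq2 and 9 with all 12 libraries in the fit.

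**Figure D5:**
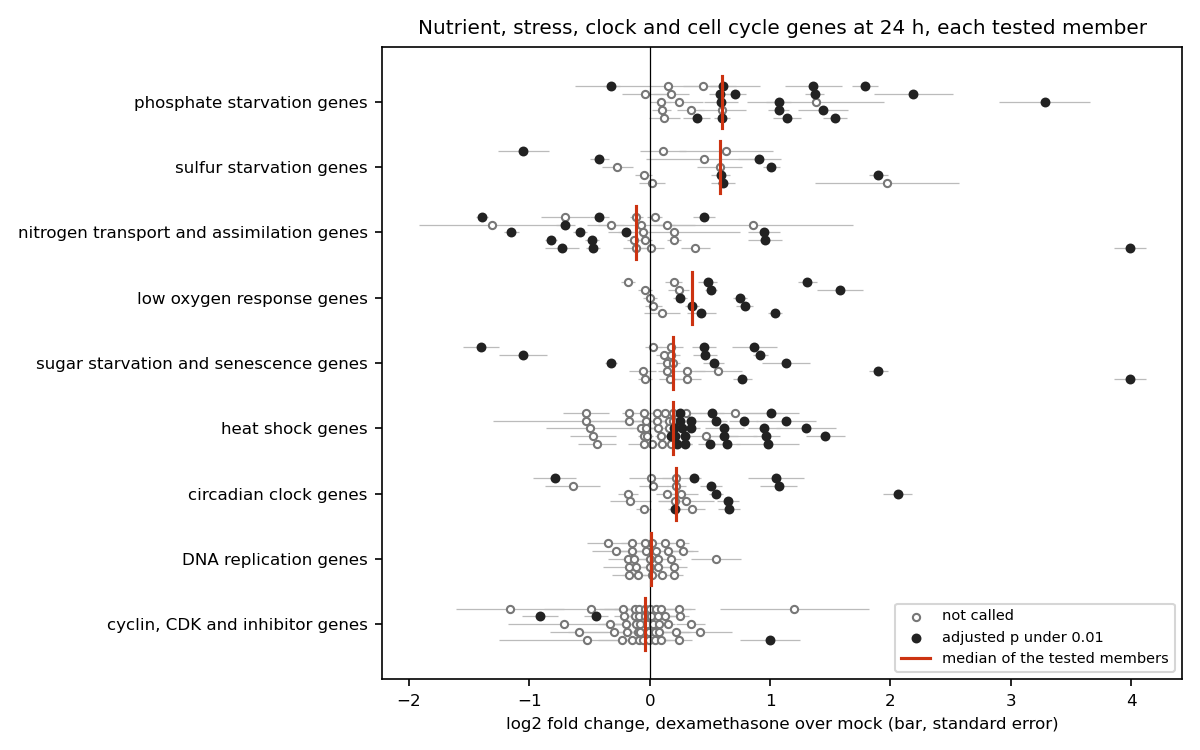
Log2 fold change of dexamethasone over mock (x axis) for each tested member of 9 groups of nutrient, stress, clock and cell cycle genes (y axis), with its standard error as a grey bar; filled points passed an adjusted p under 0.01 and red lines are medians. Most phosphate starvation genes lie to the right of 0, while DNA replication genes lie around 0 with no filled point.

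Among genes of specialised metabolism, many for glucosinolates and beta-glucosidases rose. Of 33 tested glucosinolate genes 13 rose and 5 fell. *MYB34*, an activator of indole glucosinolate synthesis, was at 2.65 and 3.45 CPM in mock and 9.67 and 8.85 CPM with dexamethasone (1.61 ± 0.22, adjusted *p* = 3.5e-07). *CYP83B1*, the enzyme that commits to this branch, rose from 128 and 126 CPM to 287 and 265 CPM (1.11 ± 0.06, adjusted *p* = 1.5e-17), and *GSTF9* from 136 and 131 CPM to 356 and 305 CPM (1.30 ± 0.06). *IGMT1*, which methylates the end products, fell from 13.8 and 12.7 CPM to 4.49 and 3.07 CPM (-1.83 ± 0.19), as did *CYP81F2* (-0.65 ± 0.12). Of the 5 falls 3 were kept with all 12 libraries in the fit or without mock A. Of 26 tested beta-glucosidase genes 11 rose and 0 fell. *PYK10*, the abundant enzyme of endoplasmic reticulum bodies in roots, was at 1503 and 1516 CPM in mock and 2680 and 2794 CPM with dexamethasone (0.86 ± 0.05). *BGLU24* was at 0.871 and 0.327 CPM in mock and 8.12 and 8.5 CPM with dexamethasone (3.74 ± 0.32). *PYK10*, *BGLU21* and *BGLU22* are close relatives, and reads that fit several of them were not counted. Of 9 tested genes of the root triterpene clusters 3 fell, *CYP705A5* from 10.1 and 9.1 CPM to 1.87 and 2.28 CPM (-2.20 ± 0.23) and *THAS1* from 66.3 and 75.4 CPM to 33.5 and 37.3 CPM (-1.00 ± 0.08), and *LUP2* rose by 0.42 ± 0.05. Without dexamethasone A or with all 12 libraries 2 rose.

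Surface lipid genes rose more often than they fell. Of 31 tested cutin and wax genes 12 rose and 2 fell, and 4 rose with all 12 libraries in the fit. *LACS1*, an acyl-CoA synthetase of wax and cutin synthesis, was at 1.31 and 0.7 CPM in mock and 9.46 and 6.83 CPM with dexamethasone (2.98 ± 0.30, adjusted *p* = 4.4e-10). *CYP86A2*, of cutin synthesis, rose from 12.3 and 13 CPM to 26.2 and 20.9 CPM (0.89 ± 0.13), while *CER1*, which makes wax alkanes, fell from 24.3 and 23.7 CPM to 10.9 and 8.72 CPM (-1.29 ± 0.13). Of 17 tested suberin genes, for the lipid barrier of roots, 4 rose, 2 with all 12 libraries in the fit, and 3 fell. Their reductase genes went apart, *FAR4* from 178 and 198 CPM to 65.8 and 72.6 CPM (-1.44 ± 0.07) and *FAR5* from 3.4 and 5.18 CPM to 10.2 and 11.5 CPM (1.35 ± 0.20).

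Some chlorophyll synthesis genes rose. Of 14 tested members 4 rose and 0 fell. *GUN5*, a subunit of magnesium chelatase, was at 18.7 and 18.6 CPM in mock and 44.4 and 42.8 CPM with dexamethasone (1.23 ± 0.10, adjusted *p* = 1.9e-12), and *G4*, chlorophyll synthase, at 12 and 9.89 CPM in mock and 22.4 and 22.7 CPM with dexamethasone (1.04 ± 0.13). With DESeq2 or all 12 libraries in the fit 2 of them rose. Of 50 tested nuclear photosynthesis genes 6 rose and 2 fell, together 16%, near the 15.5% of all genes tested. The ferredoxin gene *FD1* was at 26.2 and 22.8 CPM in mock and 50.1 and 48.5 CPM with dexamethasone (1.01 ± 0.09). Of the nuclear photosynthesis genes 3 rose with DESeq2, without mock A or without dexamethasone A, and 2 with all 12 libraries. Of the 2 falls 1 was kept without mock A or mock B.

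Transcription factor families differed in direction. Of 73 tested *NAC* genes 21 fell and 6 rose (3 with all 12 libraries), with *CUC2* the largest rise. Of 59 tested *WRKY* genes, many of them defence regulators, 16 fell and 3 rose, *WRKY31* falling (-0.96 ± 0.14) and *WRKY48* rising (0.94 ± 0.08). With all 12 libraries in the fit 9 *WRKY* genes fell, and 10 without mock A. Of 65 tested homeobox genes 18 fell and 5 rose, with 9 falls and 2 rises in the fit of all 12 and 3 rises without dexamethasone A. *HB-7* fell from 222 and 236 CPM to 114 and 118 CPM (-0.98 ± 0.06), and *HB40* rose from 6.29 and 6.35 CPM to 17 and 14.2 CPM (1.30 ± 0.16). *MYB* genes were balanced, with 13 higher and 12 lower of 74, *MYB107* rising by 2.51 ± 0.31 and *MYB60* falling (-2.48 ± 0.39).

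Few DNA replication, cyclin, CDK and inhibitor, and ribosomal protein genes were called. The share was 5.88% of cyclin, CDK and inhibitor genes and 4.25% of ribosomal protein genes, against 15.5% of all genes tested. Mitosis and cytokinesis genes differed, with 0 higher and 3 lower of 22 tested. Their share of falls was 13.6%, against 8.76% of all genes tested. With DESeq2 3 of them fell, and 0 with all 12 libraries in the fit. None of the 28 DNA replication genes was called by edgeR or DESeq2, and 7 had an unadjusted *p* under 0.05 in edgeR. With libraries scaled by their totals alone, or without dexamethasone B, 1 rose. *MCM2*, of the replicative helicase, was at 109.8 and 113 CPM in mock and 116 and 118 CPM with dexamethasone. Of 51 tested cyclin, CDK and inhibitor genes 1 rose and 2 fell, the inhibitor gene *KRP2* from 2.77 and 2.75 CPM to 5.61 and 5.47 CPM (1.00 ± 0.25), a call lost with DESeq2 and without any 1 library, and *CYCD1;1* from 14.6 and 16.1 CPM to 7.96 and 8.28 CPM (-0.91 ± 0.15). Of 259 tested ribosomal protein genes 8 rose and 3 fell, and 0 rose with all 12 libraries in the fit. That count was 3 with DESeq2, 14 with library totals alone, 2 without mock A, 5 without mock B and 3 without dexamethasone B.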

How the data were processed

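Of the 12 libraries, the 4 of 24 h were compared. Single-end reads had been trimmed (Trimmomatic 0.36), mapped to TAIR10 with STAR and assigned to Araport11 genes without strand (HTSeq 0.7.2). The deposited files hold the authors' raw counts, reads per gene and library. The tally rows (no feature, ambiguous, several positions) were dropped.

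Genes that passed edgeR's filterByExpr (edgeR 4.0.16, R 4.3.3) were tested with TMM normalization and its quasi-likelihood test, with Benjamini-Hochberg adjustment over all 19288 genes and a threshold of 0.01. The common biological coefficient of variation was 0.0611. The labels call A and B biological replicates without naming their plants, so *p*-values measure the spread between these libraries. The fit was also run on simulated counts, all with the common coefficient of variation, to check the code. Such counts hold no batch, so they say nothing about the spread of these libraries.

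The comparison and the 106 gene lists were chosen with earlier results of these data known. Names were matched to RefSeq, and 61 entries of the lists matched no single locus. Lists with at least 5 tested members and at least 20% or 3 of them called were eligible for description, and 100 met this. Genes are named by rule: the 12 largest rises and falls with a mean of at least 50 reads (*AP1*, *RAX1*, *TFL1* and the matched flavonoid genes left out), and per list up to 3 of each. A further 46 were named for a known role or an absent call after their values were seen, among them *IAA19*, *SEP2*, *PI*, *LFY*, *MYB46*, *CYP83B1* and *PYK10*. Plots add 0.1 CPM before the log.

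Alternatives were DESeq2 (1.42.0), RLE factors, library totals alone, no filter, at least 10 reads in each library, all 12 libraries, the letters A and B as a block, a log2 fold change of at least 1, and leaving out each library. No list was given a test, since its members were chosen with values known. Folds against 0 reads take 3 reads per library as the floor, which covers counting error only.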

Additional observations from a re-analysis of the deposited data

How the results depend on the processing

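Against 2995 calls, 1306 higher and 1689 lower, DESeq2 gave 2051 (856 higher, 1195 lower). The fit of all 12 libraries gave 1546 (631 higher, 915 lower), and requiring a log2 fold change of at least 1 left 804 (345 and 459). Leaving out 1 library gave 2190 to 2776 calls, 935 to 1205 higher and 1255 to 1571 lower. With library totals alone 1606 rose and 1469 fell, with the median of all genes at 0.042. Of 456 called genes picked by the rule or for a role, all kept their direction, with 384 still called by DESeq2, 318 with all 12 libraries, 450 with library totals alone and 400, 411, 418 and 410 without mock A, mock B, dexamethasone A and dexamethasone B. Genes that were not called and lay near 0 changed sign when 1 library was left out: *PLT2* ranged from -0.01 to 0.19, *ETR1* from -0.02 to 0.12, *HB1* from -0.18 to 0.21, *SCR* from -0.06 to 0.12 and *SHR* from -0.20 to 0.04. The cause was not tested.

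With the letters A and B as a replicate block, 3447 genes were called, 1556 higher and 1891 lower. Whether same-lettered libraries were paired is not stated. Their deviations from the group means correlated at 0.0526 over genes, which does not decide whether they shared a batch.

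With 2 libraries per group and 2 residual degrees of freedom, genes with a few reads can be called only at large changes.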

Other observations

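Water channel genes moved both ways, 6 higher and 5 lower of 26 tested aquaporin genes, by edgeR's quasi-likelihood test at an adjusted *p* under 0.01. The tonoplast gene *GAMMA-TIP* (*TIP1;1*) fell from 49.8 and 44.5 CPM in mock to 19.3 and 13.8 CPM with dexamethasone (-1.52 ± 0.11), and *TIP2* from 221 and 202 CPM to 125 and 113 CPM (-0.83 ± 0.06). Among plasma membrane channels *PIP2;4* fell (-2.36 ± 0.34) and *RD28* (*PIP2;3*) rose (1.33 ± 0.26), the latter being a near copy of its neighbour *PIP2B*. With DESeq2, with all 12 libraries in the fit or without mock A 3 aquaporin genes rose.

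Small signalling peptide genes also divided. *IDA*, whose peptide drives organ shedding and the separation of cells over lateral roots, fell from 10.1 and 11.4 CPM to 3.53 and 4.38 CPM (-1.43 ± 0.20). *IDL4* (-0.79 ± 0.08) and the root growth factor gene *RGF7* (-0.95 ± 0.16) fell too, while *CLL1* (1.02 ± 0.21) rose, a call lost without dexamethasone A (0.78). Of 12 tested *CLE* peptide genes 0 rose and 4 fell, *CLE26* from 5.82 and 6.44 CPM to 2.08 and 2.54 CPM (-1.40 ± 0.25), and 0 fell with all 12 libraries in the fit.

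Of 24 tested nitrate and peptide transporter genes 2 rose, 1 with DESeq2 or without any 1 library, and 7 fell. *NRT1.9* went from 40.8 and 40 CPM to 21.4 and 22.3 CPM (-0.89 ± 0.10) and *PTR1* from 35 and 35.9 CPM to 19 and 19 CPM (-0.90 ± 0.10). Of 22 tested iron genes 2 rose and 5 fell, 3 with all 12 libraries in the fit. The transporter gene *OPT3* rose from 24 and 24.1 CPM to 54.4 and 48.8 CPM (1.10 ± 0.09), and the ferric reductase gene *FRO3* fell from 34.3 and 29.8 CPM to 17.6 and 18.2 CPM (-0.84 ± 0.11). Of 37 tested HXXXD-type acyltransferase genes 1 rose and 14 fell, or 7 in the fit of all 12, and 0 rose without mock B or dexamethasone A. Of 34 tested arabinogalactan protein genes 3 rose and 10 fell, *FLA11*, of the secondary wall, from 12.2 and 10.1 CPM to 1.6 and 1.8 CPM (-2.70 ± 0.23).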
